A study of Homo sapiens with 50 samples.

Results

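Transcripts of SP1 and 8 related zinc finger factors, SP2, SP3, SP4, KLF4, KLF5, KLF6, KLF9 and KLF10, were followed in 50 one-color Agilent arrays of a human lung carcinoma line. The members were all noncontrol probes whose gene name in the array files is one of these 9 symbols, which gave 12 of 34127 probes and 9 of 25940 gene names. They were listed by name and not by a cutoff on a measured value, though with earlier results of these data known. The cells were H1299, established from a human lung carcinoma of the non-small cell type, either untransfected or carrying a stably integrated short hairpin RNA (shRNA) against RAD9, a checkpoint gene of the DNA damage response. The second line, H1299shRAD9, came from a retroviral vector selected with puromycin, its stable transfectants were used interchangeably, and the sample labels do not record which of them gave each array. No line with an empty vector or a control hairpin was among these samples.

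Each line was represented by 5 groups of 5 biological replicates, all harvested 4 h after exposure. CTL cells were sham irradiated. Cells of the DBP and DBN groups were hit directly by 1 Gy of 4He ions, that is α particles with a linear energy transfer of 125 keV per micron, on 1 surface of a Mylar dish. Cells of the BP and BN groups grew on the facing surface as bystanders, which the particles did not reach. The study sorted dishes by the micronuclei that later formed in them, a sign of DNA damage, so that BP bystanders had responded and BN bystanders had not, and DBP and DBN name the directly hit cells of those same dishes.

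Every member encodes a DNA-binding protein with a C-terminal block of C2H2 zinc fingers that reads GC-rich sequence. SP1 and SP3 are ubiquitous factors that bind GC boxes in many promoters without a TATA box, and SP3 can activate or repress. SP2 binds GC boxes poorly and is found at CCAAT-containing promoters, and SP4 is best known in neurons. Krüppel-like factors prefer CACCC or GC boxes. KLF4 is a reprogramming factor and a brake on epithelial proliferation, KLF5 favors proliferation, KLF6 is induced by serum and by injury, KLF9 is a target of glucocorticoid and thyroid hormone receptors, and KLF10 is an early target of TGF-β.

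The member that passed the test after irradiation was KLF4, and the probe that measured it lies within the coding sequence, across a zinc finger, so its letters are given as an example of what was hybridized. This probe of 60 bases lies at hg19 chr9:110248049-110248108, minus strand. Capitals mark the codons of 2 cysteines and of the first zinc-binding histidine of a finger, with 2 and 12 codons between them. KLF4 probe: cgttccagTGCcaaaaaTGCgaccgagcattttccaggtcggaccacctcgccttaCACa

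The members are GC-box binding factors, and RefSeq promoter windows (GRCh38.p14, 250 bases before each annotated start) were searched for the GC box GGGCGG on both strands (CCGCCC on the other) and for CACCC on both strands. Member windows on the chromosome of KLF10 were left out, though not from all the windows compared, so 8 of the 9 genes were searched. Of their 12 windows 10 held a GC box and 6 a CACCC box, against 42.6% and 54.7% of all 35116 windows of that length. For 4 members to which the results below return 1 window each is shown, with GC boxes in capitals. SP1 has a second window (chr12:53380394-53380643, plus strand) with 8 GC boxes, which is not shown. SP1 (chr12:53379926-53380175, plus strand) and KLF4 (chr9:107489770-107490019, minus strand) hold 4 GC boxes each, SP2 (chr17:47895986-47896235, plus strand) holds 2, and KLF9 (chr9:70414658-70414907, minus strand) holds 0. A match of these letters is a description of the window and says nothing of binding.
SP1: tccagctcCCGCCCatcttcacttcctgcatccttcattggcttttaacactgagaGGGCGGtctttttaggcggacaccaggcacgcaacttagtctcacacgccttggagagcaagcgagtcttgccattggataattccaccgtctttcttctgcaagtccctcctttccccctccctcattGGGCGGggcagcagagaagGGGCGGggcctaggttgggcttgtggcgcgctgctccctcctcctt
SP2: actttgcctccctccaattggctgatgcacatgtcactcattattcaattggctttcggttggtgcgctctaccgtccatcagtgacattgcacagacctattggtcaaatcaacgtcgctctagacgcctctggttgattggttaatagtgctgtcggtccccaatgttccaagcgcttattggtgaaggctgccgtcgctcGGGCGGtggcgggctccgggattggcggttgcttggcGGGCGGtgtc
KLF4: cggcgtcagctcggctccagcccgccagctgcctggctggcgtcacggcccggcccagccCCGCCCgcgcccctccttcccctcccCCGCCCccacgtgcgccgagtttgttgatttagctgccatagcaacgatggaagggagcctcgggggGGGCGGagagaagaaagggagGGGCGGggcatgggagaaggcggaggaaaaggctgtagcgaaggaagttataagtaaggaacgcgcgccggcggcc
KLF9: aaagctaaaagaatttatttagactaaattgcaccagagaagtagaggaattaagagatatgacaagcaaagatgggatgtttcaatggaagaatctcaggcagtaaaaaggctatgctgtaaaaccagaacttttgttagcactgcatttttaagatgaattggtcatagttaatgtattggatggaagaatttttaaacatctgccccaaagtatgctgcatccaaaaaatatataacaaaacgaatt

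All values below are log2 levels relative to the median of the array, and a difference of 1 is a 2-fold change. Levels of different probes are not comparable. Between 55.4% and 83.4% of probes were well above background on an array, with medians of 64.6% in H1299 and 60.9% in H1299shRAD9. The arrays came from 13 slides scanned on 6 days, and only 2 slides held both lines, so that slide and cell line can mostly not be told apart. KRT8, KRT18 and VIM, markers of a carcinoma line with mesenchymal traits, were well above background on 50 arrays. CDH1 was above background on 0 and EPCAM on 5. NKX2-1, a lung lineage factor, was above background on 25 of 25 H1299 arrays and on 0 of 25 H1299shRAD9 arrays, with means of −0.95 in H1299 CTL and −3.56 in H1299shRAD9 CTL, so that an identity marker separated the lines beside every line comparison below. Among markers of other cells PECAM1 was above background on 2 arrays, COL1A1 on 8, all of them H1299, CD3E on 38 and PTPRC on 50. PTPRC, the leukocyte antigen CD45, averaged 1.31 in H1299shRAD9 CTL and 0.11 in H1299 CTL, and the part of these markers' differences in the member results was not tested. RAD9A itself (probe at hg19 chr11:67165480-67165539, plus strand) lay between 3.34 and 3.85 in the 5 unirradiated H1299shRAD9 arrays and between 3.82 and 4.18 in H1299, a level of 77.9% (limma, log2 difference −0.36, SE 0.12, adjusted p = 0.0561, not past the threshold of p). In exposed cells it was −0.34 (DBP), −0.13 (BP), 0.06 (DBN) and −0.11 (BN), with none past the threshold. These are RNA levels of 1 probe. The study chose its transfectants on Western blots for a marked reduction of RAD9 protein, which these arrays do not measure. Fewer cells of a kind and less RNA per cell cannot be told apart in such bulk samples.

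A single probe of each of the 9 genes was well above background on 50 of 50 arrays, and these 9 probes were tested. The remaining 3 probes failed the background criterion, a second SP2 probe (above background on 1 array) and the other KLF6 probes (on 3 and 9 arrays), and give no level. SP1 was read at hg19 chr12:53810152-53810211, and SP2 at chr17:46005939-46005998. SP3 was read at chr2:174773291-174773350, SP4 at chr7:21553991-21554050, KLF5 at chr13:73650979-73651038, KLF6 at chr10:3821387-3821446 and KLF9 at chr9:72999837-72999896.

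**Figure D1:**
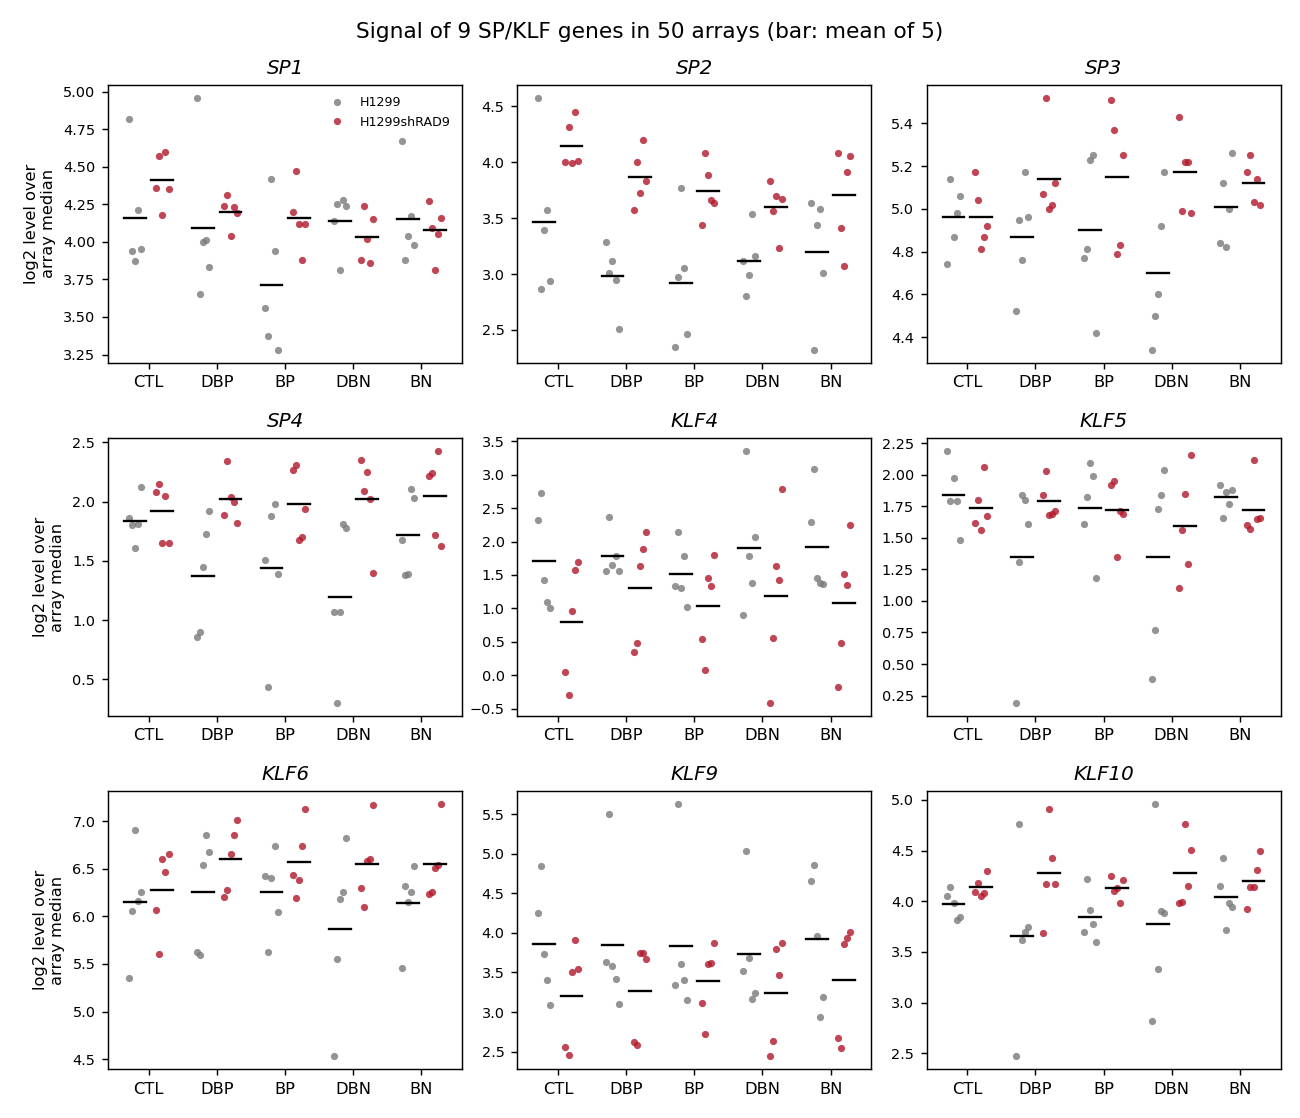
Log2 level over the array median (y axis) of the tested probe of each gene in CTL, DBP, BP, DBN and BN cells (x axis), 1 point an array, H1299 in gray and H1299shRAD9 in red, bars the mean of 5 arrays. SP2 sits higher in H1299shRAD9 than in H1299 in every exposure group by its mean, and KLF4 and KLF9 sit lower, with arrays of the 2 lines overlapping in all but SP2 in DBP.

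The first question was whether the members differ between the lines. In unirradiated cells 0 of 9 passed the threshold (limma, p under 0.005 with a false discovery rate under 10%, which 13% of all 20079 features passed). For 9 members this 0 is near that share and so no result about them. The random-variance test named in the study's methods gave 0 as well. An unadjusted p under 0.05 was reached by 1 of 9, SP2, against 33.9% of all features. The median difference over all features was 0.06 in CTL cells and 0.10, 0.12, 0.16 and 0.13 for DBP, BP, DBN and BN, against which the line differences below are to be read. SP2 read 4.00, 4.32, 3.99, 4.45 and 4.01 in replicates 1 to 5 of H1299shRAD9 CTL and 4.58, 2.87, 3.39, 3.57 and 2.94 in H1299 CTL. Replicate 1 of H1299 lay above all arrays of the other line and the other 4 lay below them. The log2 difference was 0.68 (SE 0.28, adjusted p = 0.108), and without replicate 1 of both lines it was 1.00 and passed (adjusted p = 0.00989).

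In the exposed groups 1 of 9 members passed in DBP, 0 in BP, DBN and BN, against 5.39%, 6.57%, 2.47% and 7.52% of all features. The member was SP2. It read 3.57, 4.00, 3.73, 4.20 and 3.83 in directly hit H1299shRAD9 cells of responding dishes and 3.29, 3.01, 3.12, 2.95 and 2.51 in the same group of H1299. The lines did not overlap, and SP2 was 1.86-fold higher in H1299shRAD9 (log2 difference 0.89, SE 0.18, 95% interval 0.50 to 1.28, adjusted p = 0.0217). The call was lost without replicate 4 (0.80, adjusted p = 0.137), without replicate 5 (0.78, adjusted p = 0.124) and with another background correction (0.92, adjusted p = 0.117).

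Among bystanders of those dishes SP2 read 3.44, 4.08, 3.89, 3.66 and 3.64 in H1299shRAD9 BP against 2.35, 2.97, 3.77, 3.05 and 2.46 in H1299 BP. Replicate 3 of H1299 lay among the H1299shRAD9 arrays and the other 4 below them. The difference of 0.82 (SE 0.25, adjusted p = 0.0832) missed the threshold by its unadjusted p of 0.0061, and it passed in 4 of 14 alternative settings. SP2 differed by 0.48 in DBN (adjusted p = 0.275) and by 0.51 in BN (adjusted p = 0.254). No slide and no scan day held DBP or CTL arrays of both lines, so for those groups line and slide cannot be told apart. On the slide that held BP arrays of both lines, SP2 read 3.44 in replicate 1 of H1299shRAD9 and 2.46 in replicate 5 of H1299.

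SP4 was the other SP factor with a difference between lines in exposed cells at an unadjusted p under 0.05, in DBP and DBN. It lay between 1.82 and 2.34 in H1299shRAD9 DBP and read 0.86, 0.90, 1.45, 1.73 and 1.92 in H1299 DBP, and only the highest H1299 array reached into the range of the other line. The difference was 0.65 in DBP (adjusted p = 0.132) and 0.82 in DBN (adjusted p = 0.174), neither past the threshold, against 0.08 in unirradiated cells. With all groups in one fit the DBN difference passed (adjusted p = 0.0208).

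SP1 did not pass in any group. Its line difference ran from −0.11 in DBN to 0.45 in BP, and in CTL it was 0.25 (95% interval −0.13 to 0.64). SP3 differed by between 0.00 and 0.46, KLF5 by between −0.10 and 0.44, KLF6 by between 0.13 and 0.69 and KLF10 by between 0.16 and 0.62, none past the threshold. KLF4 differed by −0.92 in CTL (SE 0.44, adjusted p = 0.164) and KLF9 by −0.67 (SE 0.36, adjusted p = 0.21). Both were lower by their mean in H1299shRAD9 in all 5 groups, within the spread of the replicates.

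**Figure D2:**
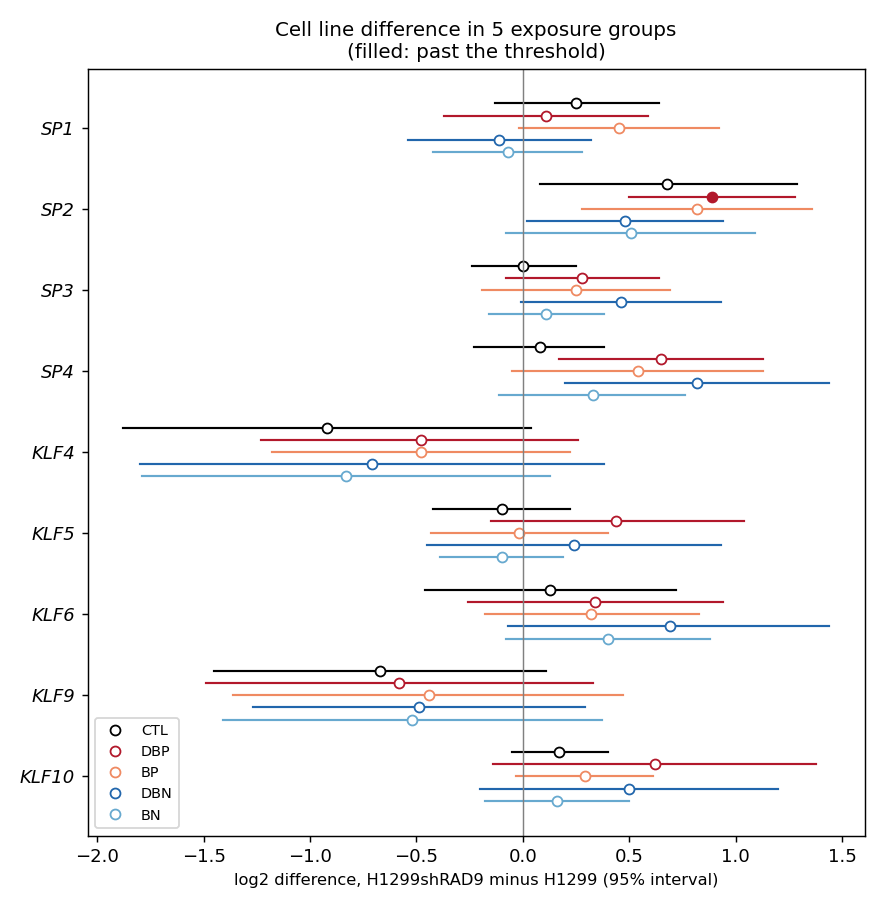
Log2 difference between H1299shRAD9 and H1299 (x axis) with its 95% interval for each gene (y axis) in CTL, DBP, BP, DBN and BN cells, filled where it passed the threshold. Only SP2 in DBP, at 0.89, is filled, and the KLF4 and KLF9 values lie left of 0 in all 5 groups with intervals that include 0.

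The second question was the response to irradiation within a line, with the replicate number pairing exposed and CTL arrays. In H1299shRAD9, 1 of 9 members passed in DBP, 0 in BP, DBN and BN (limma, p under 0.006 with a false discovery rate under 10%), against 1.29%, 1.61%, 2.8% and 0.0299% of all features. The members with an unadjusted p under 0.05 numbered 4, 2, 3 and 2, against 13.9%, 10.8%, 14.3% and 13.5% of all features. The member that passed was KLF4, in directly hit cells of responding dishes. Replicates 1 to 5 read 0.04, −0.30, 0.96, 1.57 and 1.69 in CTL and 0.34, 0.48, 1.63, 1.89 and 2.15 in DBP. The groups overlapped widely, and DBP was higher in 5 of 5 pairs, 1.42-fold on average (log2 difference 0.51, SE 0.10, 95% interval 0.28 to 0.74, adjusted p = 0.085).

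Each of these 5 pairs was scanned on the same day. On the slides that held both groups KLF4 read 1.89 in DBP replicate 4 beside 0.96 and 1.57 in CTL replicates 3 and 4, and 2.15 in DBP replicate 5 beside 1.69 in CTL replicate 5. With slide as a fixed block the DBP difference was 0.39 and the call was lost (adjusted p = 0.663). Without the replicate block the same difference had an adjusted p of 0.966, and the call was also lost on leaving out any of replicates 2, 3, 4 or 5 (0.44 to 0.55, adjusted p between 0.126 and 0.305). KLF4 differed by 0.25 in BP, 0.40 in DBN and 0.29 in BN, none past the threshold, and with the slide block the values were −0.06 and −0.46 in BP and DBN.

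SP1 lay below its CTL partner in 5 of 5 pairs of each of the 4 exposed groups of H1299shRAD9. It read 4.36, 4.57, 4.18, 4.60 and 4.35 in CTL, against 4.24, 4.31, 4.04, 4.23 and 4.19 in DBP and 4.20, 4.47, 4.12, 3.88 and 4.12 in BP. In DBN it read 3.88, 4.24, 4.02, 3.86 and 4.15, and in BN 4.27, 4.09, 3.81, 4.05 and 4.16. The 4 groups share the CTL arrays, and each overlapped them. The differences were −0.21 in DBP (adjusted p = 0.319), −0.25 in BP (adjusted p = 0.473), −0.38 in DBN (SE 0.11, adjusted p = 0.153) and −0.34 in BN (SE 0.09, adjusted p = 0.217), and none passed. With all groups in one fit the values for DBN and BN did (adjusted p = 0.0329 and 0.0849).

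SP2 went the same way by its values. After 4.00, 4.32, 3.99, 4.45 and 4.01 in CTL it read 3.83, 3.56, 3.70, 3.23 and 3.67 in DBN, and these groups did not overlap, yet the difference of −0.56 (SE 0.16, adjusted p = 0.154) did not pass. It was −0.29 in DBP (adjusted p = 0.189), −0.41 in BP (adjusted p = 0.186) and −0.45 in BN (adjusted p = 0.338), where 3 of 5 pairs were lower. The DBP value passed with 75th percentile scaling (−0.33, adjusted p = 0.0854) and with quantile normalization (−0.32, adjusted p = 0.0893). With slide as a fixed block the BN value was 0.06. On the slide that held CTL replicates 3 and 4, SP2 read 3.99 and 4.45 there, 4.20 in DBP replicate 4 and 3.66 in BP replicate 4.

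KLF6 had positive values in all 4 groups that did not pass, 0.32 in DBP (5 of 5 pairs higher, adjusted p = 0.245), 0.30 in BP, 0.28 in DBN and 0.27 in BN. It read 6.07, 5.60, 6.60, 6.46 and 6.65 in CTL and 6.20, 6.28, 6.65, 6.85 and 7.01 in DBP, and replicate 2 had the widest gap. SP3 differed by 0.16 to 0.20, SP4 by 0.06 to 0.13, KLF5 by −0.15 to 0.05, KLF9 by 0.05 to 0.21 and KLF10 by −0.01 to 0.14, with none past the threshold.

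In H1299, 0 of 9 members passed in DBP, BP, DBN or BN, against 0.0349%, 0%, 0.00996% and 0% of all features. The random-variance test gave 0 as well. An unadjusted p under 0.05 was reached by 2, 0, 1 and 0 members, against 5.57%, 5.67%, 3.28% and 3.42% of all features. SP4 lay below its CTL partner in 5 of 5 pairs in DBP and in DBN. It read 1.86, 1.80, 1.61, 1.81 and 2.12 in CTL and 1.07, 0.30, 1.07, 1.81 and 1.78 in DBN, with replicate 4 at the level of its partner and replicate 2 far below. The differences were −0.47 in DBP (SE 0.18, adjusted p = 0.795) and −0.63 in DBN (SE 0.26, adjusted p = 1.00). KLF5 and KLF10 each had 1 very low array in DBP, replicate 1, at 0.19 against 2.19 in its CTL partner for KLF5 and at 2.47 against 4.05 for KLF10. SP2 differed by −0.50 in DBP (adjusted p = 0.795), and the SP1 values were −0.07, −0.45, −0.02 and −0.01 in DBP, BP, DBN and BN.

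**Figure D3:**
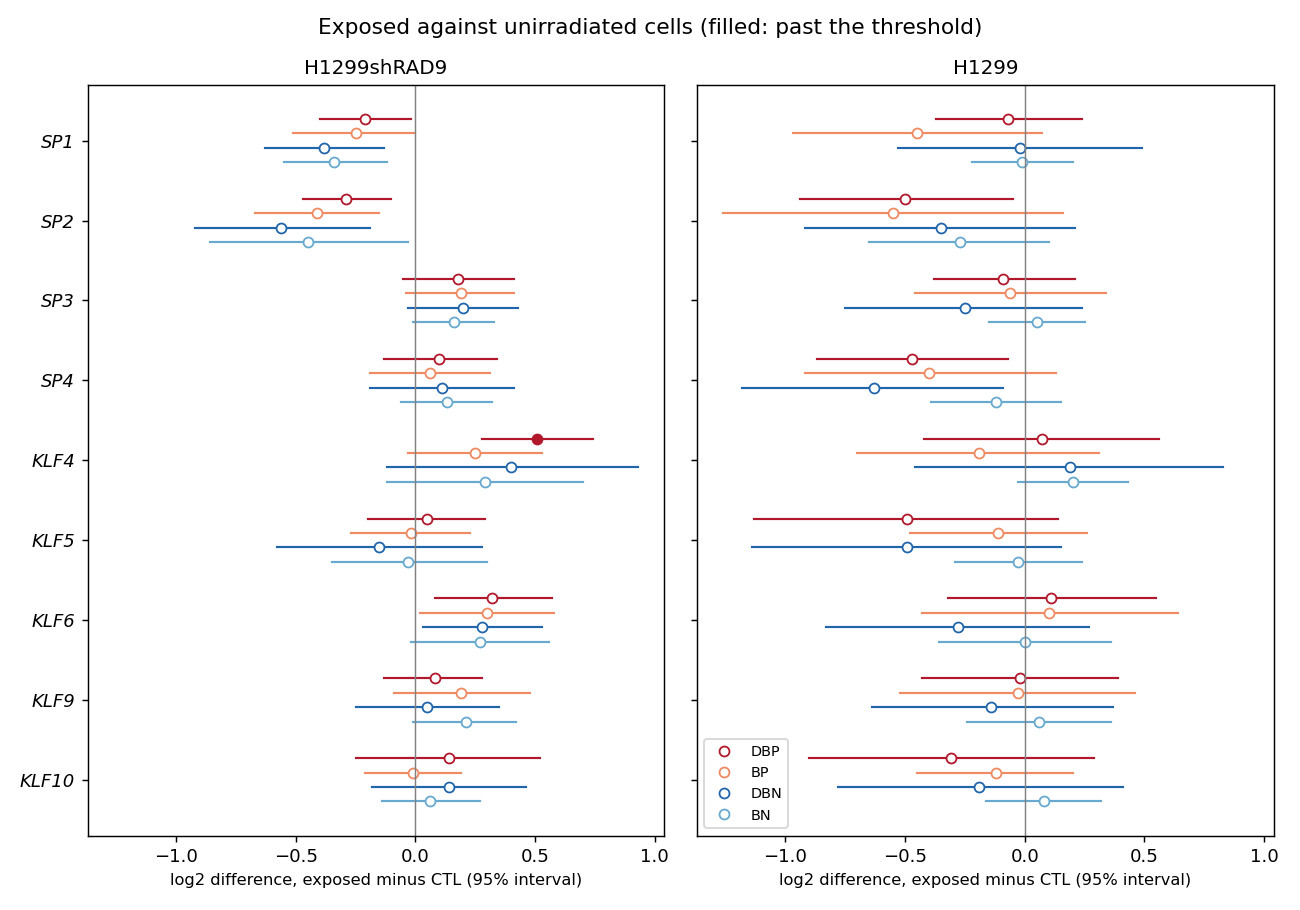
Log2 difference between exposed and CTL cells (x axis) with its 95% interval for each gene (y axis) in H1299shRAD9 (left) and H1299 (right), filled where it passed the threshold. Only KLF4 in DBP of H1299shRAD9, at 0.51, is filled, and SP1 and SP2 lie left of 0 in all 4 exposed groups of both lines.

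Whether the response itself differed between the lines was tested as an interaction. Of the 9 members 0 passed in DBP, BP, DBN or BN, against 0%, 0%, 0.0149% and 0% of all features. An unadjusted p under 0.05 was reached by 1, 0, 1 and 1 members, against 7.74%, 6.51%, 7.02% and 7.29% of all features. The KLF4 response in DBP differed by 0.44 between the lines (95% interval −0.12 to 1.00, adjusted p = 0.668), so its call in 1 line is not a shown difference between them. SP4 differed by 0.57 in DBP (SE 0.21, adjusted p = 0.632) and by 0.74 in DBN (SE 0.28, adjusted p = 0.48). SP1 differed by −0.32 in BN (SE 0.12, adjusted p = 0.632) and by −0.14 in DBP, where the 95% interval ran from −0.45 to 0.17.

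Directly hit and bystander cells of the same dishes were compared as pairs. In H1299shRAD9 0 of 9 members passed for DBP against BP and for DBN against BN (0.0797% and 0.0797% of all features), and in H1299 0 of 9 passed for DBP against BP and for DBN against BN (0% and 0.00498%). In the 4 comparisons 0, 0, 0 and 1 had an unadjusted p under 0.05, against 4.13%, 2.23%, 6.93% and 2.69% of all features. The last was SP4 in H1299, which was lower in DBN than in BN in 5 of 5 pairs (−0.51, SE 0.22). KLF4 was 0.26 higher in DBP than in BP in both lines (SE 0.12 in each, adjusted p = 1.00 in H1299shRAD9 and 0.656 in H1299). Dishes with and without a responding bystander were compared without pairs. For DBP against DBN and BP against BN in each line 0 of 9 passed, and 0% of all features did. An unadjusted p under 0.05 was reached by 0 members. The shares of all features were 0.473% and 0.364% in H1299shRAD9 and 0.498% and 1.52% in H1299. For SP1 in H1299shRAD9, DBP lay 0.17 above DBN (95% interval −0.08 to 0.42).

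Much of the spread of KLF4 and KLF9 within groups went with the replicate number. In all 5 groups of H1299shRAD9 the lowest arrays of both genes were those numbered 1 and 2, and in all 5 groups of H1299 the highest array of both genes was number 2. KLF9 read 2.56, 2.46, 3.51, 3.91 and 3.54 in H1299shRAD9 CTL and 2.62, 2.58, 3.74, 3.74 and 3.67 in DBP. In H1299 it read 4.25, 4.84, 3.73, 3.40 and 3.09 in CTL and 3.63, 5.50, 3.58, 3.42 and 3.10 in DBP. The low arrays of one line and the high array of the other kept their numbers from CTL to DBP.

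The share of the variation within groups that went with the replicate number was 93.5% for KLF9, 90.3% for KLF4 and 87.7% for KLF6 in H1299shRAD9, against a median of 40.6% over all features, and 9.13% for SP2 and 43.7% for SP1. In H1299 it was 86.9% for KLF9, higher than 99.8% of features, 64.9% for KLF4 and 36.9% for SP2, against a median of 36.1%. Slide and scan day moved with the number in part. On the slide that held H1299shRAD9 arrays of both numbers, KLF9 read 2.64 in DBN and 2.55 in BN replicate 2, and 3.74 in DBP and 3.61 in BP replicate 3. On a slide of H1299 arrays, DBN replicate 2 read 5.03 beside 4.25, 3.63 and 3.34 in replicates 1 of CTL, DBP and BP. On these slides the numbers also differ in exposure group, and what the number stands for was not tested.

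**Figure D4:**
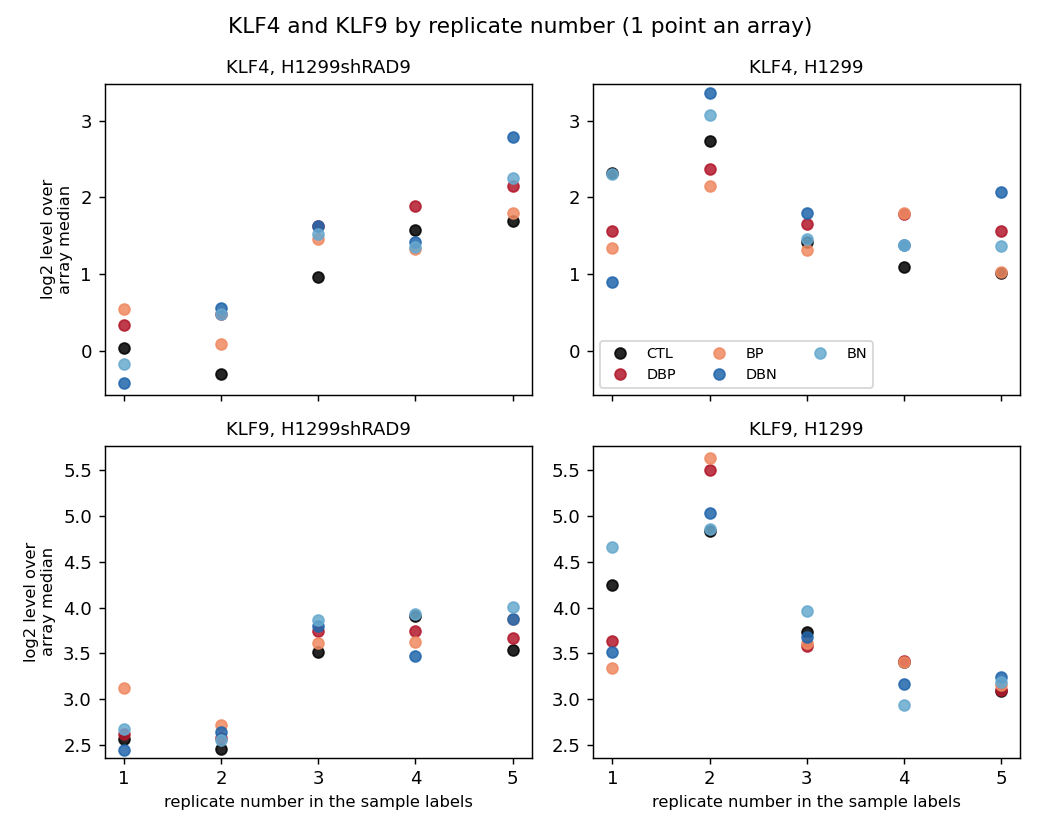
Log2 level of KLF4 (top) and KLF9 (bottom) over the array median (y axis) against the replicate number in the sample labels (x axis), 1 point an array, colored by exposure group, H1299shRAD9 on the left and H1299 on the right. KLF9 lies at 3.12 or below in replicates 1 and 2 of H1299shRAD9 and at 3.47 or above in the others, while replicate 2 of H1299 lies at 4.84 or above.

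Over the 10 group means, SP1 was highest in H1299shRAD9 CTL (4.41 ± 0.17, SD, n = 5) and lowest in H1299 BP (3.71 ± 0.47). The 8 means between lay from 4.03 to 4.20, and neighbors in that order, the step down to H1299 BP included, differed by less than the larger of their SDs. The step from H1299shRAD9 CTL to H1299shRAD9 DBP (4.20 ± 0.10), the next in order, was wider than either SD. SP2 had the same group on top (4.15 ± 0.21), then the 4 other H1299shRAD9 groups (3.60 to 3.87), then H1299 CTL (3.47 ± 0.69) and the exposed H1299 groups down to BP (2.92 ± 0.56). The genes whose group means went most closely with SP1, of 15797 genes, were TRAK1 (Pearson r = 0.965), which encodes a trafficking protein of mitochondria, IGF1R (r = 0.948), the insulin-like growth factor receptor, and C3orf23 (r = 0.934). Among the members SP2 was nearest (r = 0.689) and KLF9 farthest (r = −0.416). These correlations run over 10 means that share arrays, scaling and slides, and are given as a description.

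Of the 17 other SP and KLF genes on the array, 15 were tested. In unirradiated cells 2 were higher and 1 lower in H1299shRAD9, a share to be read against the 13% of all features, and the list median was 0.22 against 0.06 over all features. SP5, a Wnt target and repressor, was lower by 1.17 on the log2 scale (SE 0.18, adjusted p = 0.00337). KLF2, a flow-responsive endothelial factor, was higher by 0.85 (SE 0.11, adjusted p = 0.00101), and KLF1, the erythroid factor, by 0.75 (adjusted p = 0.0244). SP5 and KLF2 passed with the same sign in DBP, BP, DBN and BN as well, with differences of −1.34, −1.21, −1.29 and −1.28 for SP5 and of 0.84, 0.81, 1.31 and 0.86 for KLF2. KLF16 was higher in BN alone among the 5 groups (0.55, SE 0.15, adjusted p = 0.0495), and whether BN differed from the other groups was not tested. After irradiation 0 of these 15 genes passed in any exposed group of either line. The shares of all features were 1.29%, 1.61%, 2.8% and 0.0299% in DBP, BP, DBN and BN of H1299shRAD9. In H1299 they were 0.0349%, 0%, 0.00996% and 0%, so this 0 is no result about the list. An unadjusted p under 0.05 was reached by 3, 2, 5 and 3 in H1299shRAD9, against 13.9%, 10.8%, 14.3% and 13.5% of all features. In H1299 it was 0, 0, 1 and 1, against 5.57%, 5.67%, 3.28% and 3.42%.

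Of 16 cofactors and modifiers of SP and KLF proteins, 2 passed in unirradiated cells, a share near the 13% of all features and so no result about the list. Both were higher in H1299shRAD9, the acetyltransferase CREBBP (0.59, SE 0.10, adjusted p = 0.00605) and MED26 (0.46, adjusted p = 0.0206), a Mediator subunit, and the list median was 0.16 against 0.06 over all features. Both passed in BP too (0.76 and 0.56, against 6.57% of all features). In DBP and DBN 0 cofactors passed, against 5.39% and 2.47% of all features. There 4 and 4 had an unadjusted p under 0.05, against 20.6% and 17.1% of all features. In BN the 3 called cofactors were EP300 (0.59), MED26 (0.48) and FBXW7 (0.41), against 7.52% of all features. After irradiation 0 of 16 passed in each line. The shares of all features were 1.29%, 1.61%, 2.8% and 0.0299% in DBP, BP, DBN and BN of H1299shRAD9. In H1299 they were 0.0349%, 0%, 0.00996% and 0%, so this 0 is no result about the list. An unadjusted p under 0.05 was reached by 0, 0, 1 and 2 in H1299shRAD9, against 13.9%, 10.8%, 14.3% and 13.5% of all features. In H1299 it was 0 in every group, against 5.57%, 5.67%, 3.28% and 3.42%.

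Among 15 textbook SP1 target genes, CDKN1A, the p21 inhibitor, was lower (−0.88, SE 0.16, adjusted p = 0.00689) in unirradiated H1299shRAD9. The list median was 0.11 against 0.06 over all features. In this comparison 13% of all features passed, so the call of this gene is no result about the list. CDKN1A was lower in BP as well (−0.92, adjusted p = 0.0225), where 6.57% of all features passed. In DBP, DBN and BN 0 of the 15 passed between the lines, CDKN1A included, against 5.39%, 2.47% and 7.52% of all features. There 0, 2 and 3 had an unadjusted p under 0.05, against 20.6%, 17.1% and 25.4% of all features. After irradiation 0 of 15 passed in each exposed group of both lines, near the share of all features and so no result about the list. Those shares in DBP, BP, DBN and BN were 1.29%, 1.61%, 2.8% and 0.0299% in H1299shRAD9. In H1299 they were 0.0349%, 0%, 0.00996% and 0%. In H1299shRAD9 4, 2, 4 and 3 had an unadjusted p under 0.05 in DBP, BP, DBN and BN, against 13.9%, 10.8%, 14.3% and 13.5% of all features. In H1299 the numbers were 1, 2, 1 and 2, against 5.57%, 5.67%, 3.28% and 3.42%. The list medians in H1299shRAD9 were 0.04, 0.02, −0.04 and −0.03, each within 0.03 of the median over all features.

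The study drew an SP1 network from these same samples and named 7 genes of it in its text, so their counts are no independent evidence of a direction. In H1299shRAD9, 3 of the 7 passed after DBP exposure, 3 after DBN, 1 after BP and 0 after BN, against 1.29%, 2.8%, 1.61% and 0.0299% of all features. In BN 2 had an unadjusted p under 0.05, against 13.5% of all features. In H1299 0 passed, with 4, 3, 2 and 1 at that p in DBP, BP, DBN and BN, against 5.57%, 5.67%, 3.28% and 3.42%. The interaction of line and exposure gave 0, with 0, 0, 1 and 1 at that p, against 7.74%, 6.51%, 7.02% and 7.29%. In H1299shRAD9 CDKN2C, the p18 inhibitor of cyclin-dependent kinases, fell by 0.84 in DBP (SE 0.09, adjusted p = 0.0257) and by 0.81 in DBN (adjusted p = 0.0354). CDKN2D, the p19 inhibitor, fell by 0.41 in DBN (adjusted p = 0.0964). MMP14, a membrane-bound matrix metalloproteinase, rose by 0.55 in DBP, 0.61 in BP and 0.72 in DBN (adjusted p = 0.0791, 0.0538 and 0.0495), and MMP1, a collagenase, rose by 0.70 in DBP (adjusted p = 0.0982). The list medians were −0.08, 0.03, −0.09 and 0.03 in DBP, BP, DBN and BN. Between the lines 1, 0, 0, 0 and 1 of the 7 passed in CTL, DBP, BP, DBN and BN. Of all features 13%, 5.39%, 6.57%, 2.47% and 7.52% did, so these calls are no result about the list. An unadjusted p under 0.05 was reached by 5, 2, 2, 1 and 1, against 33.9%, 20.6%, 22.4%, 17.1% and 25.4% of all features. In unirradiated cells MMP14 was lower in H1299shRAD9 than in H1299 (−1.02, SE 0.26, adjusted p = 0.0235). MMP1 was lower in BN (−1.04, adjusted p = 0.0528). CDKN2C was also lower in DBP than in BP of H1299shRAD9 (−0.64, SE 0.08, adjusted p = 0.0779).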

How the data were processed

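Total RNA of the 50 samples was hybridized to one-color Agilent arrays. The authors deposited scanner output with a processed intensity per spot, already background corrected by Agilent Feature Extraction, and a table of log2 values that the authors background corrected and median normalized in BRB-ArrayTools. The deposited processed intensity was put on the log2 scale here, spots marked as outliers were dropped, spots of a probe were averaged, and the median of the noncontrol probes of each array was subtracted. Features below background or outlier-marked on 25% or more of arrays were left out, which kept 20079 of 34127 probes. Tests used limma 3.58.1 in R 4.3.3 with Benjamini-Hochberg adjustment over all 20079 features. A call needed p under 0.005 between lines, p under 0.006 elsewhere, and a false discovery rate under 10%. Exposed and CTL arrays, and direct and bystander arrays, were paired by replicate number. The study's methods used a paired test with matched controls, and direct and bystander cells shared a dish. To describe the pairing, the group mean of each feature was subtracted and the remaining deviations were correlated between arrays. Same-number exposed and CTL arrays had mean correlations of these deviations of 0.469 to 0.525 in H1299shRAD9 and 0.149 to 0.423 in H1299. Single pairs went down to −0.177 in H1299. For direct and bystander arrays the means were 0.596 and 0.538 in H1299shRAD9 and 0.39 and 0.26 in H1299. Arrays of different numbers had means between −0.143 and −0.03. In all 25 comparisons were made. Named genes were all members, up to 4 called genes with the largest difference from each of 4 lists (other SP and KLF genes, cofactors, textbook SP1 targets, genes of the study's SP1 network, the last pair sharing CDKN1B), and the 3 genes most like SP1 over the group means. The same likeness for a member called between unirradiated lines did not apply, since 0 were called. Where a gene had several probes, the brightest that passed the background criterion was used. Members and lists were chosen with earlier results of these data known. The fits of some comparisons were run on simulated data with independent noise between arrays. That noise lacked variation shared by replicate number or slide, so the fits under such variation were not tested. Alternatives covered scaling, normalization, background correction, the authors' values, filters, arrays in the fit, the test, left-out replicates, pairing and slide. Each array stands for 1 sample, and the number of arrays limits the precision. Results of 1 listed gene and 1 marker gene are not reported here.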

Additional observations from a re-analysis of the deposited data

Results flagged for a closer look

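In 7 of 90 groups of 5 arrays (9 members, 10 groups) the highest array stood apart from the others by Dixon's criterion, where chance alone gives about 4.5. For KLF9 these were replicate 2 of H1299 in DBP (5.50), BP (5.63) and DBN (5.03), and for KLF4 replicate 2 of H1299 DBP (2.37). The others were SP1 in replicate 1 of H1299 DBP (4.96), SP3 in replicate 2 of H1299shRAD9 DBP (5.52) and KLF5 in replicate 3 of H1299shRAD9 BN (2.12), all as log2 level over the array median.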

How the results depend on the processing

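Of 104 counts of called members under an alternative, 86 stayed on their side, and those for exposure in H1299, the interaction and the responding against nonresponding dishes stayed at 0 in every alternative run. Between unirradiated lines leaving out a replicate gave 0 to 1 calls. Between exposed lines (1 call) there were 2 without the background criterion (both SP2 probes in DBP), 3 with all groups in one fit, 2 with the replicate block and 0 to 2 on leaving out a replicate, with 0 without replicate 4 or 5. SP2 in DBP ranged from 0.78 to 1.04 (adjusted p 0.00618 to 0.137). With normexp background correction the call moved to BP (0.82, adjusted p = 0.0829). For exposure in H1299shRAD9 (1 call) there were 2 with 75th percentile scaling, 2 with quantile normalization, 2 with all groups in one fit (SP1, while KLF4 had adjusted p = 0.247), and 0 without the background criterion, without the replicate block, and with slide as a fixed block, and leaving out a replicate gave 0 to 1. KLF4 in DBP ranged from 0.37 to 0.56 (adjusted p 0.0681 to 0.966). Direct against bystander cells gave 1 without the background criterion, a SP2 probe below background. With slide as a fixed block 3 uncalled values turned sign, SP2 in BN to 0.06, KLF4 in BP to −0.06 and KLF4 in DBN to −0.46. Pairing of the lines by replicate number (replicate block) brought SP2 in BP past the threshold (0.82, adjusted p = 0.0861). RAD9A in CTL ranged from −0.50 to −0.33 and passed with normexp (adjusted p = 0.0335). Slide as a random block could not be fitted for the exposed line comparisons. Where no cause is named, the cause was not tested.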
